A study of Mus musculus with 12 samples.

Results

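The genes described here lie beside Dlx5 on mouse chromosome 6: Pdk4, Dync1i1, Slc25a13 and Sem1 on the proximal side of the Dlx6 and Dlx5 pair, and Sdhaf3, Tac1, Asns, Rpa3, Glcci1 and Ica1 on the distal side. They are a list of genes from this region, not all of its genes. Other measured genes that lie between them, such as C1galt1, Mios and Umad1, were not in the list. Every probe set annotated to 1 of the listed genes was used. This gave 17 probe sets of 10 genes among 45037 probe sets and 18194 genes on the array. The question was whether expression of genes that flank a mutated Dlx5 allele differs in mutant otic vesicles, the epithelial sacs that form the inner ear. Dlx5 encodes a homeobox transcription factor of the early otic epithelium.

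RNA was measured on 12 arrays in 6 groups of 2. The groups were Dlx5-null vesicles at embryonic day 10 (E10), wild-type vesicles at E10, Dlx5-null vesicles at E10.5, wild-type vesicles at E10.5, cells of the 2B1 otic vesicle line transfected with Dlx5, and 2B1 cells transfected with an empty vector. Each vesicle sample was a separate pool of 4 to 8 vesicles treated with dispase to remove mesenchyme, and each 2B1 sample was an independent culture. Both 2B1 groups carried a GFP vector by transient transfection, so a culture can mix transfected and untransfected cells, and both were kept at 37 °C for 4 days after growth at 32 °C. The embryos were staged by somites, but their strain and the structure of the mutant allele were not stated in the labels. An effect of losing Dlx5, of the altered allele and of chromosome 6 sequence linked to it cannot be told apart with these groups.

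The pair of Dlx5 and its neighbour Dlx6 is transcribed convergently and shares regulatory DNA, part of which lies within neighbouring genes. Exons of Dync1i1, for example, contain enhancers that act on this pair in the developing limb, and rearrangements of the region underlie split hand and foot malformation in humans. The neighbours themselves serve unrelated housekeeping, metabolic and signalling functions. In RefSeq gene order, Dlx6 was the only protein-coding gene between Sem1 and Dlx5, and Sdhaf3 was the next gene on the distal side. The starts of the outermost genes, Pdk4 and Ica1, lay 3282 kb apart, those of Sem1 and Sdhaf3 377 kb apart, and those of Asns and Rpa3 566 kb apart.

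Promoter sequences from RefSeq, build GRCm38.p6, were matched for 10 of the 10 genes, as 12 windows of 300 bases. Those of Rpa3 and Asns are shown because these genes had the smallest unadjusted p-values of the 10 between the genotypes, and that of Tac1 because it was the only 1 of the 12 windows with the homeodomain core TAATTA. Each runs 5′ to 3′ on the strand of its gene, and capitals mark the motif matches found on either strand.
Rpa3, chr6:8259092-8259391, minus strand: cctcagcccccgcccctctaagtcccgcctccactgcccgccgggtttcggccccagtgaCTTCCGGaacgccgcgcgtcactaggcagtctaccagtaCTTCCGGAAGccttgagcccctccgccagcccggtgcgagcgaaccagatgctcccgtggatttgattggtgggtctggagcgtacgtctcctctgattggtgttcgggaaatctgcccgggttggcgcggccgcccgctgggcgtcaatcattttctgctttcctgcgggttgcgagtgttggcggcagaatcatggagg
Asns, chr6:7693160-7693459, minus strand: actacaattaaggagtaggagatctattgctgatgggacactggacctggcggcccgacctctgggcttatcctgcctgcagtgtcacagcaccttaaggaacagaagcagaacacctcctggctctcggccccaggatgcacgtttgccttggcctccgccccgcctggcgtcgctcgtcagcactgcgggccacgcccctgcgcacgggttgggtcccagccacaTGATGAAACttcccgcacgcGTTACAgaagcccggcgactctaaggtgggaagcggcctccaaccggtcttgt
Tac1, chr6:7554811-7555110, plus strand: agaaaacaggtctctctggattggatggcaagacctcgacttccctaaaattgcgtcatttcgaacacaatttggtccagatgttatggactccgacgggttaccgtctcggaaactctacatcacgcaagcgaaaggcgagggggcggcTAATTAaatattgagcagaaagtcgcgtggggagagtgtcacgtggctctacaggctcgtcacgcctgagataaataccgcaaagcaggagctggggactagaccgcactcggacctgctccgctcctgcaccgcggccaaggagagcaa
The Asns window held TGATGAAAC and GTTACA, the nutrient-sensing sites through which amino acid shortage is known to raise Asns transcription, starting at positions -23 and -3 from the annotated start. Of 32851 promoter windows of this length, 0.247% held TGATGAAAC and 8.25% held GTTACA. The Rpa3 window held 3 matches to CCGGAAG, the core bound by ETS factors, of which those at -151 and -148 overlapped on opposite strands, and the Sdhaf3 window held 1. That motif was in 8.86% of windows, and TAATTA, which reads the same on both strands, was in 5.29%. Such matches are letters in a window, not measured binding.

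Levels are given as log2 expression values, on which a difference of 1 is a 2-fold change. The vesicle and 2B1 arrays had different means and maxima and may have been normalized apart, so no level was compared across them. Ranks among all probe sets, and words such as bright and dim, are a rough guide, since probes differ in affinity. No difference in level between probe sets was tested. Within vesicles, Sem1, Slc25a13, Asns and 1 probe set of Ica1 were above at least 94.1% of all probe sets, Rpa3 above 91.1% and Dync1i1 above 83.8%. Pdk4 lay above 7.8% of probe sets, and the Tac1 probe sets above 5.2% and 17.4%, levels at which RMA compresses differences and at which expression may not have been detected. In 2B1 cells Dync1i1 was at the dim end, above 5.6% of the probe sets there.

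Facts of the arrays that touch the comparisons are given here once. In vesicles labelled Dlx5-null the probe set of Dlx5 itself had higher values, at 7.27 and 8.02 against 6.20 and 6.30 in wild-type at E10, and at 7.97 and 7.97 against 6.12 and 6.11 in wild-type at E10.5. Its difference over both stages was 1.63 (SE 0.17, limma adjusted p = 0.057), and where its probes lie relative to the altered part of the gene was not examined, so it checks no label. Directions given below follow the labels. Dlx6 was between 4.76 and 5.16 in Dlx5-null and between 4.61 and 5.05 in wild-type vesicles, with a difference of 0.05 (95% interval -0.26 to 0.35). In 2B1 cells the same Dlx5 probe set was at 5.14 and 4.80 with Dlx5 and 4.66 and 4.79 in empty vector cultures. These differed by 0.24 (95% interval -0.17 to 0.66, limma adjusted p = 0.631), and whether the probes match the introduced sequence was not examined. Of 15 otic epithelial markers, Oc90 and Sox10 had the highest levels in vesicles, 12.44 and 11.82, above 98.3% and 97.2% of the probe sets there. The lowest, Otx2, was above 42.1%. The mean of the 15, which include Dlx5, was 7.74 and 7.56 in the first E10 replicates of Dlx5-null and wild-type. It was 8.27 to 8.65 on the other 6 vesicle arrays. Over both stages 7 of the 15 were higher and 8 lower in Dlx5-null vesicles. At an unadjusted limma p under 0.05 were 3 of the 15, against 3.85% of all genes. These were Dlx5, higher, and Pax8 (-0.93, SE 0.16, limma adjusted p = 0.252) and Cdh1 (-0.38, SE 0.12), lower. In 2B1 cells the mean of that list was 5.05 to 5.13 per array, below the 5.76 to 5.82 that all probe sets averaged on those arrays. Among vesicles, 23993 of all 45037 probe sets had a higher mean in the Dlx5-null arrays over both stages. All 12 markers of otic neuroblasts and neurons did, by 0.0075 (Elavl3) to 0.915 (Pou4f1). Of these, 2 had an unadjusted limma p under 0.05, against 3.85% of all genes. By stage, 10 of the 12 were higher at E10 and 9 at E10.5. Their list mean per array was 6.69 to 7.69 in Dlx5-null and 6.31 to 7.34 in wild-type. The mean of 10 blood markers at E10.5 was 9.42 and 9.26 in Dlx5-null and 8.51 and 8.48 in wild-type vesicles, while at E10 it was 7.26 and 7.87 against 7.27 and 7.88. Of 14 periotic mesenchyme markers, 12 had a lower mean in Dlx5-null vesicles, and per-array list means were 6.04 to 6.76 in Dlx5-null and 6.22 to 6.96 in wild-type. Of 9 endothelial markers, 7 had a lower and 2 a higher mean in Dlx5-null vesicles. Of the 9, 3 (Pecam1, Cdh5 and Sox17, all lower) had an unadjusted limma p under 0.05, against 3.85% of all genes. Per-array list means were 5.4 to 5.89 in Dlx5-null and 5.55 to 6.0 in wild-type. Of 8 hindbrain markers, 5 were higher and 3 lower in Dlx5-null vesicles, with 0 at an unadjusted p under 0.05. Both first replicates at E10 had a low Xist level, at 4.98 in Dlx5-null and 5.07 in wild-type, where the other 6 vesicle arrays had 8.91 to 9.72. The Y-linked gene Eif2s3y was at 6.50, 6.17, 4.82 and 5.04 in Dlx5-null and at 7.04, 3.96, 3.21 and 3.45 in wild-type vesicles. Its difference over both stages was 1.22 (SE 0.54), while the Y-linked genes Kdm5d and Uty had 0.22 (SE 0.20) and 0.15 (SE 0.27). The part of these differences in cell makeup and sex of the pools in the results below was not tested, except where a value without an array, or with Eif2s3y as a covariate, is given. In whole vesicles, fewer cells of a type and less RNA per cell cannot be told apart.

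Over both stages none of the 17 probe sets passed the limma adjusted threshold of 0.05 in Dlx5-null against wild-type vesicles, where 0.00444% of all probe sets did. Rpa3 and Dync1i1 had lower values and Asns and 1 probe set of Glcci1 higher values, and these 5 probe sets of 4 genes had an unadjusted p under 0.05. That was 29.4% of the 17, against 3.52% of all probe sets, and probe sets of 1 gene share their transcript. The genes were chosen with earlier results of these data known. By direction, 3 of 17 were higher, against 1.26% of all, and 2 of 17 were lower, against 2.26%. At both stages, in the same direction, 4 of 17 probe sets, those of Rpa3, Asns and 1 of Glcci1, had Dlx5-null and wild-type values that did not overlap, as did 4.39% of all probe sets. The median difference of the 17 was -0.04 and that of all probe sets 0.01, and the signs were mixed, with 7 higher and 10 lower. Of all 45037 probe sets, 23993 were higher.

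**Figure D1:**
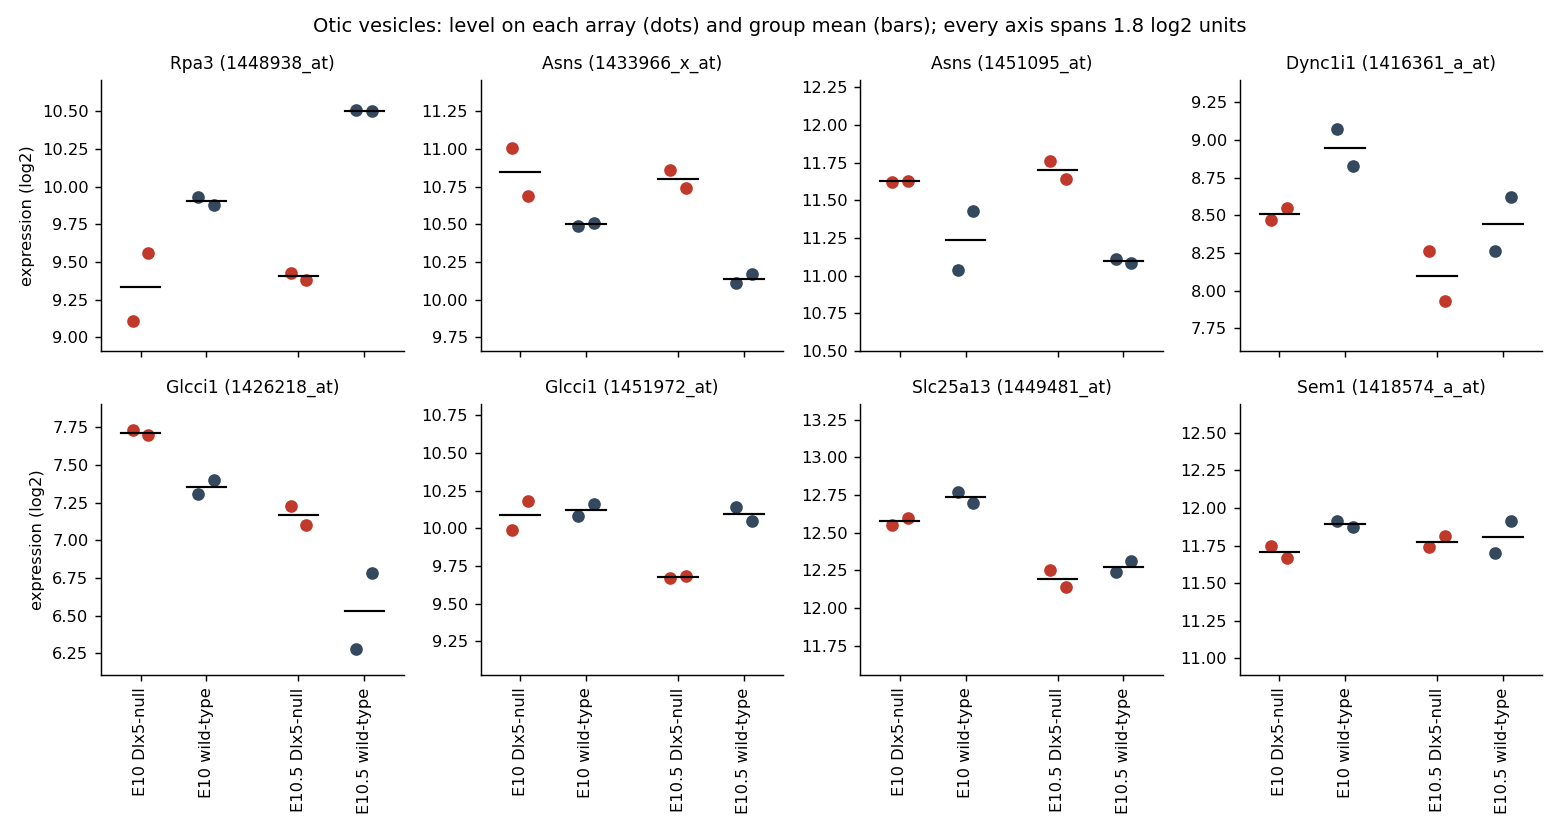
Log2 expression (vertical axis) of 8 probe sets in otic vesicles, with 1 dot per array, a bar at each group mean, and Dlx5-null (red) left of wild-type (dark) at each stage. Dlx5-null dots of Rpa3 lie below, and those of Asns above, the wild-type dots of the same stage.

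Rpa3 encodes the small subunit of replication protein A, the trimer that coats single-stranded DNA in replication and repair. At E10 its level was 9.11 and 9.56 in Dlx5-null and 9.93 and 9.88 in wild-type vesicles. At E10.5 it was 9.43 and 9.38 in Dlx5-null vesicles, against 10.51 in the first wild-type sample and a value 0.01 below that in the second. All 4 Dlx5-null arrays were thus below the wild-type arrays of the same stage, and at E10.5 the distance was far larger than the spread within either pair. Over both stages the means were 9.37 ± 0.19 in Dlx5-null and 10.20 ± 0.35 in wild-type (SD, n = 4), a difference of -0.83 (SE 0.15, 95% interval -1.17 to -0.50). In limma this had an unadjusted p of 0.000295, rank 48 of 45037, and an adjusted p = 0.277. The difference was -0.57 (SE 0.18) at E10, with limma adjusted p = 1.0, and -1.10 (SE 0.18) at E10.5, with limma adjusted p = 0.40. Without Dlx5-null replicate 1 the E10 difference was -0.34, with an unadjusted p of 0.0913 in limma against 0.0141 with it. Without both first replicates at E10, which also estimate the spread, the E10.5 difference had a limma adjusted p = 0.0377, at a setting that called 52 probe sets. With Eif2s3y as a covariate the E10.5 difference was -1.10 and its limma adjusted p = 0.733.

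Asns encodes asparagine synthetase, an enzyme that amino acid shortage and other stresses induce through the transcription factor ATF4. Its probe set 1433966_x_at, where x marks probes that may also match other transcripts, was at 11.01 and 10.69 in Dlx5-null and 10.49 and 10.51 in wild-type vesicles at E10. At E10.5 it was at 10.86 and 10.74 in Dlx5-null and 10.11 and 10.17 in wild-type vesicles. Each Dlx5-null array lay above both wild-type arrays of its stage. Probe set 1451095_at was at 11.62 and 11.63 in Dlx5-null and 11.04 and 11.43 in wild-type vesicles at E10, and at 11.76 and 11.64 against 11.11 and 11.08 at E10.5. Again no Dlx5-null array overlapped the wild-type arrays of its stage, and the probe sets gave nearly the same size. The differences over both stages were 0.51 (SE 0.12, 95% interval 0.23 to 0.78) and 0.50 (SE 0.12, 95% interval 0.23 to 0.77). Their limma adjusted p-values were 0.75 and 0.781, with unadjusted ranks of 135 and 143 of 45037. By stage they were 0.35 and 0.39 at E10 and 0.66 and 0.60 at E10.5. The E10 difference of 1433966_x_at was 0.19 without Dlx5-null replicate 1, and that of 1451095_at was 0.20 without wild-type replicate 1.

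Dync1i1 encodes an intermediate chain of cytoplasmic dynein, a motor that moves cargo along microtubules, and is the second gene from the proximal end of this set. Its level at E10 was 8.47 and 8.55 in Dlx5-null and 9.07 and 8.83 in wild-type vesicles. At E10.5 it was 8.26 and 7.93 in Dlx5-null and 8.26 and 8.62 in wild-type vesicles. The groups did not overlap at E10 and shared a value at E10.5. The difference over both stages was -0.39 (SE 0.13, 95% interval -0.69 to -0.10, limma adjusted p = 0.999, unadjusted p = 0.0149). Without the second E10.5 replicate of Dlx5-null or of wild-type its unadjusted p was 0.0504 and 0.0572 in limma.

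Glcci1, first found as a transcript that glucocorticoids induce in thymocytes, was read by 3 probe sets that went different ways. Probe set 1426218_at was at 7.73 and 7.70 in Dlx5-null and 7.31 and 7.40 in wild-type vesicles at E10, and at 7.23 and 7.10 against 6.28 and 6.78 at E10.5. It was higher in Dlx5-null at both stages without overlap, by 0.50 over both (SE 0.14, 95% interval 0.19 to 0.80, limma adjusted p = 0.999). The brighter probe set 1451972_at was at 9.99 and 10.18 in Dlx5-null and 10.08 and 10.16 in wild-type vesicles at E10, where the groups overlapped. At E10.5 it was at 9.67 and 9.68 in Dlx5-null and 10.14 and 10.05 in wild-type, lower by 0.42 (SE 0.15, unadjusted p = 0.0252, limma adjusted p = 0.999). With any 1 of the E10.5 arrays left out, that unadjusted limma p was 0.0715 to 0.131, and the E10.5 difference of 1426218_at, 0.64, was 0.39 without wild-type replicate 1. The third, 1440945_at, was dim, at 4.27 to 4.59 in Dlx5-null and 4.08 to 4.84 in wild-type, with a difference of -0.01 over both stages. The gene as a whole therefore had no single direction on this array.

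The remaining 10 probe sets, of Sem1, Slc25a13, Sdhaf3, Pdk4, Tac1 and Ica1, had unadjusted limma p-values over 0.05 over both stages, although their intervals leave room for modest differences. Sem1, which encodes a small acidic subunit of the proteasome regulatory particle that also binds BRCA2, is the nearest of these genes proximal to the Dlx pair. Its probe set 1418574_a_at was at 11.75 and 11.67 in Dlx5-null and 11.91 and 11.87 in wild-type vesicles at E10, and at 11.74 and 11.81 against 11.70 and 11.91 at E10.5. The E10 values did not overlap, but the difference over both stages was -0.10 (95% interval -0.34 to 0.13), and that of 1418575_at -0.05 (95% interval -0.27 to 0.17). Sem1 thus had the narrowest range in vesicles of the brighter genes, with 1418575_at at 12.74 to 12.88 in Dlx5-null and 12.79 to 12.92 in wild-type.

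Slc25a13 encodes citrin, the mitochondrial carrier that exchanges aspartate for glutamate in the malate-aspartate shuttle. It was at 12.55 and 12.60 in Dlx5-null and 12.77 and 12.70 in wild-type vesicles at E10, and at 12.25 and 12.14 against 12.24 and 12.31 at E10.5, where the groups overlapped. The difference over both stages was -0.12 (95% interval -0.34 to 0.10). Sdhaf3, the first gene distal to Dlx5, encodes an assembly factor of succinate dehydrogenase. Its probe set 1456614_at was at 7.19 and 8.31 in Dlx5-null and 7.54 and 8.14 in wild-type vesicles at E10. At E10.5 it was at 7.84 and 7.49 in Dlx5-null and 7.84 and 7.91 in wild-type. The Dlx5-null arrays differed from each other by more than 1 at E10, and the interval of the difference was accordingly wide, -0.68 to 0.38 around -0.15. Its other probe set was dim, at 2.54 to 3.03 in Dlx5-null and 2.66 to 3.0 in wild-type.

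Pdk4 encodes a kinase that switches off pyruvate dehydrogenase in fasting. Over both stages Pdk4 was at 2.88 to 3.41 in Dlx5-null and 2.97 to 3.39 in wild-type vesicles, ranges that overlapped nearly throughout. The genotypes overlapped at E10 but not at E10.5, where values were 3.16 and 3.20 in Dlx5-null and 3.07 and 2.97 in wild-type. Tac1, the precursor gene of the neuropeptides substance P and neurokinin A, was likewise dim, at 2.72 to 3.27 in Dlx5-null and 2.58 to 3.07 in wild-type by 1416783_at. Its other probe set was at 3.76 to 4.08 in Dlx5-null and 3.72 to 3.94 in wild-type, with a difference of 0.10 (95% interval -0.16 to 0.36). Ica1 encodes an islet cell autoantigen, a BAR domain protein of the Golgi and secretory vesicles. Its bright probe set 1417901_a_at was at 11.49 to 11.79 in Dlx5-null and 11.43 to 11.65 in wild-type, and its dimmer 1431644_a_at at 5.86 to 6.31 against 6.10 to 6.75. These gave 0.07 (95% interval -0.16 to 0.30) and -0.30 (95% interval -0.68 to 0.07), opposite signs with intervals that both include 0. At E10.5 alone the genotypes did not overlap for either Ica1 probe set, as for 40.8% of all probe sets.

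**Figure D2:**
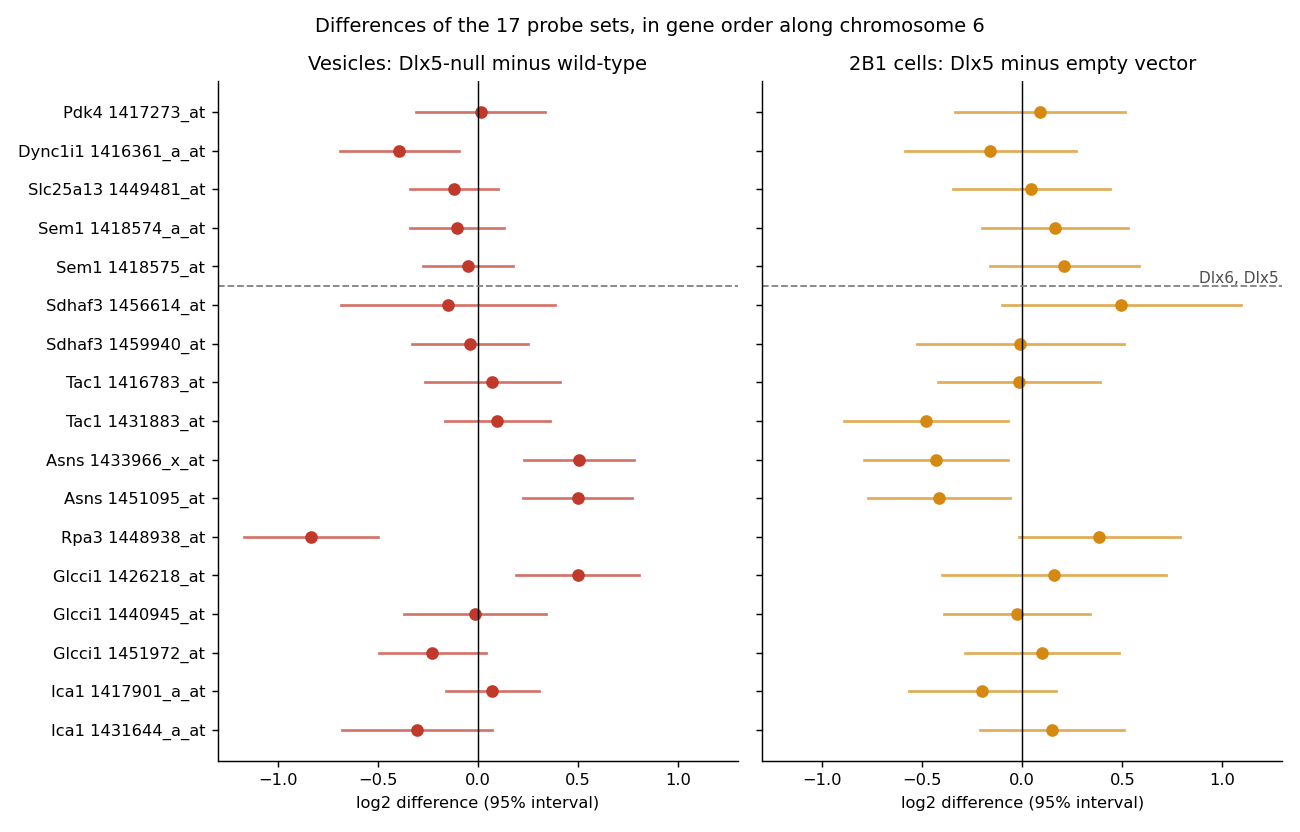
Log2 differences (horizontal axis) with limma 95% intervals of the 17 probe sets in gene order down the page, for Dlx5-null minus wild-type vesicles over both stages (left) and Dlx5 minus empty vector in 2B1 cells (right). In vesicles the intervals of Rpa3, Dync1i1, both Asns probe sets and 1 Glcci1 probe set do not include 0, and in 2B1 cells those of both Asns probe sets and 1 Tac1 probe set do not.

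At E10 alone 0 of 17 probe sets passed the limma adjusted threshold, as did 0 of all, and 1 of 17, that of Rpa3, had an unadjusted p under 0.05, against 2.98% of all. At E10.5 alone 0 of 17 passed, against 0.00222% of all, and 5 of 17 had an unadjusted p under 0.05, against 2.54%. These 5 were Rpa3, both probe sets of Asns and 2 of Glcci1. The values of the genotypes did not overlap for 8 of 17 probe sets at E10, against 18.8% of all, and for 9 of 17 at E10.5, against 40.8%. Whether the genotype difference itself differed between the stages was tested by the interaction. There 0 of 17 probe sets passed adjusted, as did 0 of all, and 0 had an unadjusted p under 0.05, against 2.13% of all. Rpa3 came nearest, with a difference of -0.53 between the stages (SE 0.26, 95% interval -1.12 to 0.06, limma adjusted p = 1.0), which was -0.30 without Dlx5-null replicate 2 at E10.

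Between E10.5 and E10, 0 of 17 probe sets passed the limma adjusted threshold in wild-type vesicles, against 0.835% of all, and 4 of 17 had an unadjusted p under 0.05, against 14.8%. In Dlx5-null vesicles 0 of 17 passed, against 0.0688%, and 3 of 17 had an unadjusted p under 0.05, against 10.4%. These shares are near the background, and the contrasts share arrays with the genotype comparisons. Glcci1 1426218_at was lower at E10.5 in wild-type by 0.82 (SE 0.19, limma adjusted p = 0.102) and in Dlx5-null by 0.55 (SE 0.19, limma adjusted p = 0.367). Slc25a13 was lower at E10.5 by 0.46 in wild-type and by 0.38 in Dlx5-null, with limma adjusted p-values of 0.201 and 0.419. With the spread trended on level and estimated robustly, the wild-type difference of Slc25a13 had a limma adjusted p = 0.0478. Rpa3 had a higher E10.5 level in wild-type, by 0.60 (SE 0.18, limma adjusted p = 0.181), and in Dlx5-null the difference was 0.07 (SE 0.18, limma adjusted p = 0.946). The difference of these is the interaction given above.

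In 2B1 cells the introduced Dlx5 comes from a vector and the resident chromosome 6 copies are not altered by design. Over all probe sets, empty vector culture 1 had a mean of 5.76 and an SD of 2.19. The other cultures had means of 5.81 to 5.82 and SDs of 2.29 to 2.31. The part of that array in the 2B1 differences was not tested, except where a value without it is given. None of the 17 probe sets passed the limma adjusted threshold, nor did any of the 45037, while 4288, or 9.52%, had an unadjusted p under 0.05. Of the 17, 3 did so, both probe sets of Asns and 1 of Tac1, all with lower values after Dlx5 transfection, against 3.41% of all in that direction. Asns 1433966_x_at was at 12.40 and 12.29 with Dlx5 and 12.83 and 12.72 with the empty vector. Asns 1451095_at was at 12.88 and 12.77 with Dlx5 and 13.23 and 13.25 with the empty vector. The groups overlapped for neither, and 9 of 17 probe sets had no overlap, against 42.6% of all. The differences were -0.43 (SE 0.15, 95% interval -0.79 to -0.07) and -0.41 (SE 0.15, 95% interval -0.77 to -0.06), each with limma adjusted p = 0.521. Tac1 1431883_at was at 4.23 and 3.89 with Dlx5 and 4.56 and 4.52 with the empty vector, a dim signal, and the other probe set gave -0.01 (95% interval -0.42 to 0.39). The difference of 1431883_at was -0.48, and -0.31 without the second Dlx5 culture. Without either Dlx5 culture the unadjusted limma p of both Asns probe sets was over 0.05, at 0.102 to 0.193.

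Rpa3 in 2B1 cells was at 8.89 and 8.85 with Dlx5 and 8.33 and 8.64 in empty vector cultures. Their difference was 0.39 (SE 0.17, 95% interval -0.02 to 0.79, limma adjusted p = 0.522), and it was 0.23 without empty vector culture 1. Side by side, Asns had positive differences in Dlx5-null vesicles and negative ones in Dlx5-transfected cells, and Rpa3 the reverse, but none of these 4 sets of values passed adjustment and the difference between the systems was not tested. Sdhaf3 1456614_at was at 7.28 and 7.30 with Dlx5 and at 6.42 and 7.17 with the empty vector, where the empty vector cultures had an SD of 0.53. Its difference of 0.49 was 0.12 without empty vector culture 1 and 0.87 without culture 2. Sem1 was at 12.76 and 12.74 with Dlx5 and 12.67 and 12.50 in empty vector cells by 1418574_a_at, which differed by 0.17 (95% interval -0.20 to 0.53). Slc25a13 was at 11.02 and 10.99 with Dlx5 and 10.82 and 11.10 with the empty vector, so the groups overlapped. Pdk4 was at 5.0 and 4.62 with Dlx5 and 4.70 and 4.74 with the empty vector, Dync1i1 at 2.80 and 2.98 against 3.22 and 2.88, and both overlapped. Ica1 1417901_a_at was at 11.06 and 10.95 with Dlx5 and 11.13 and 11.28 in empty vector cells, differing by -0.20 (95% interval -0.57 to 0.17). The Glcci1 probe sets differed by -0.03 to 0.16, each within its interval of 0.

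**Figure D3:**
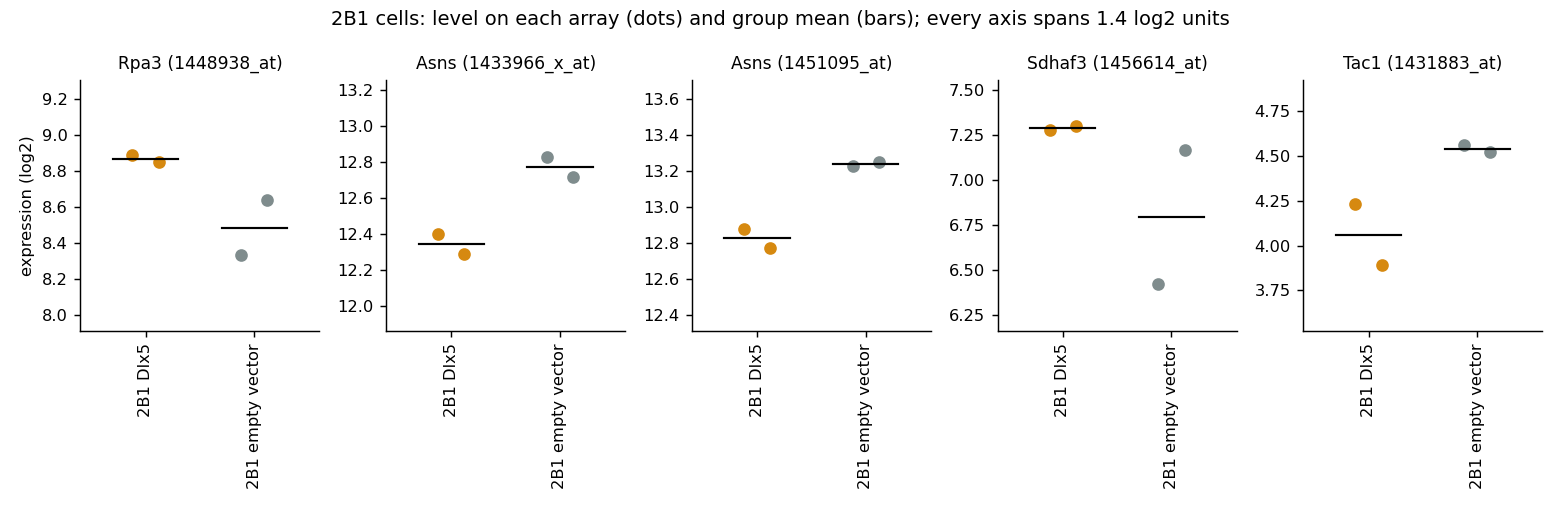
Log2 expression (vertical axis) of 5 probe sets in 2B1 cells, with 1 dot per culture and a bar at each group mean, for cells transfected with Dlx5 (orange, left) and with the empty vector (grey, right). Both Asns probe sets lie lower with Dlx5, and 1 empty vector culture sets most of the spread of Sdhaf3.

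The genes around this set were described to show what the region does otherwise. The list held the 20 nearest other measured genes on each side, with each gene read by its brightest probe set in the arrays of each fit. Over both stages 0 of 40 passed the limma adjusted threshold and 2 of 40 had an unadjusted p under 0.05, against 3.85% of all genes. The median difference was -0.05 on the proximal side, with 9 of 20 higher, and -0.10 on the distal side, with 4 of 20 higher. The median of all genes was 0.005, and 23993 of all 45037 probe sets were higher. Whether the sides differ from that share was not tested. On the distal side 1110019D14Rik had a difference of -1.01 (SE 0.29, unadjusted p = 0.00609) and 2610001J05Rik had -0.30 (SE 0.14). On the proximal side the paraoxonase genes Pon2 and Pon3, which encode lactone-cleaving antioxidant enzymes, had -0.36 (SE 0.16) and -0.59 (SE 0.29). Each of these 4 had a limma adjusted p = 0.999 over both stages. At E10.5 alone 3 of 40 had an unadjusted limma p under 0.05, against 2.83% of all genes, and at E10 0 of 40, against 3.0%. At E10.5 1110019D14Rik had -1.805 (SE 0.18, limma adjusted p = 0.0953), rank 4 among all probe sets, where Rpa3 had rank 34. The E10 difference of 1110019D14Rik was -0.225 (SE 0.18). Pon3 had -1.19 (SE 0.315) at E10.5 and 0.01 (SE 0.315) at E10.

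By distance in gene order, each gene was read by its brightest probe set, which leaves out Glcci1 1426218_at. The 10 genes described here were chosen with earlier results of these data known. In vesicles over both stages 3 of them had an unadjusted p under 0.05, against 1 of 10 other genes within 10 places of Dlx5. Those other genes include Dlx6, Dlx6os1 and Dlx6os2. At E10.5 alone these counts were 3 of 10 and 2 of 10. Over both stages the share was 2.7% of 37 genes at 11 to 30 places and 4.29% of 70 at 31 to 100 places. It was 3.12% of 864 farther along chromosome 6 and 3.53% over the chromosome. Within the set no relation of the values to distance from Dlx5 was tested. Sem1 and Sdhaf3, which flank the Dlx pair, had differences of -0.05 and -0.15 by their brightest probe sets, while Asns and Rpa3, farther out on the distal side, had 0.50 and -0.83 in opposite directions. In 2B1 cells 5 of the 40 surrounding genes had an unadjusted p under 0.05, against 11% of all genes. The 4 with the smallest p were Umad1 at 1.07 (SE 0.26), Ndufa4 at 0.58 (SE 0.20), Bet1 at 0.43 (SE 0.16) and Casd1 at 0.57 (SE 0.21), each higher with Dlx5 and each with limma adjusted p = 0.521. Umad1 is the measured gene next to Rpa3 on the distal side.

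**Figure D4:**
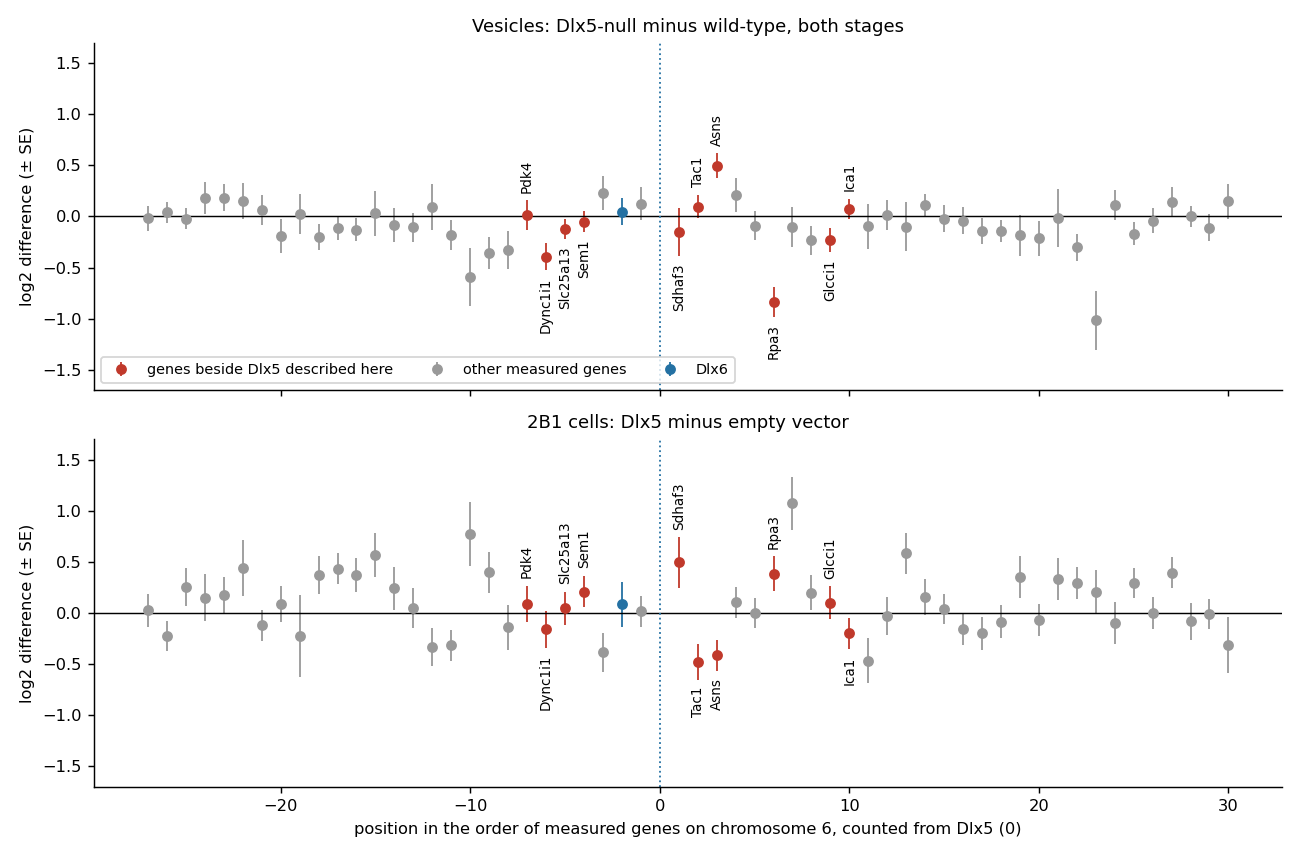
Log2 differences (vertical axis, bars ± SE) of measured genes in their order along chromosome 6 counted from Dlx5 at 0, each by its brightest probe set in vesicles, for Dlx5-null minus wild-type vesicles over both stages (top) and Dlx5 minus empty vector in 2B1 cells (bottom). Asns and Rpa3 stand on opposite sides of 0 in each panel, and most other genes lie within 0.5 of it.

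The genes that work with each neighbour were set beside it, by lists of known partners. None of the listed genes passed the limma adjusted threshold in vesicles over both stages. Beside the counts by direction given below, 23993 of all 45037 probe sets were higher in Dlx5-null vesicles over both stages. In 2B1 cells 22349 were higher with Dlx5. The median of all genes was 0.005 in vesicles and 0.01 in 2B1 cells. Whether the narrower spread of values in empty vector culture 1 shaped the 2B1 counts was not tested. Among 12 genes of replication protein A and the replication fork, 1 was higher and the median was -0.08, with 0 at an unadjusted p under 0.05. The other subunit genes of the Rpa3 trimer, Rpa1 and Rpa2, had differences of -0.07 (SE 0.10) and -0.04 (SE 0.12), small beside the -0.83 of Rpa3. In 2B1 cells 9 of these 12 were higher with Dlx5, with a median of 0.19, and 3 had an unadjusted p under 0.05, against 11% of all genes. These were the clamp loader genes Rfc1 (0.57, SE 0.16) and Rfc3 (0.71, SE 0.20) and the primase gene Prim1 (0.45, SE 0.17).

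Asns was set beside 29 genes of the amino acid response. In vesicles 14 of these were higher in Dlx5-null and 15 lower, with a median of -0.03. At an unadjusted p under 0.05 there were 2 of 29, against 3.85% of all genes. These were 1 higher, the stress-induced chromatin protein gene Nupr1 (0.36, SE 0.14), and 1 lower, Psat1 of serine synthesis (-0.32, SE 0.13). Atf4 itself had a difference of 0.04 (SE 0.12) and Trib3, another ATF4 target, 0.33 (SE 0.25). In 2B1 cells, where Asns was lower with Dlx5, 22 of the 29 were higher and the median was 0.14, and the folate enzyme gene Mthfd2 had 0.54 (SE 0.18). The list as a whole therefore did not follow Asns in direction in either system, as a count and without a test.

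The 18 genes set beside Sem1, those of the proteasome regulatory particle with Brca2, had a median of -0.10 in vesicles, near the Sem1 values. Their median was 0.23 in 2B1 cells, where 16 of 18 were higher with Dlx5. The 7 genes of succinate dehydrogenase and its assembly had -0.05 in vesicles and 0.20 in 2B1 cells, where all 7 were higher. All 5 genes of other tachykinin peptides and of tachykinin receptors were lower there, with a median of -0.19. The 19 dynein and dynactin genes had a median of 0.005 in vesicles, where Dync1i1 had -0.39, and 0 had an unadjusted p under 0.05. The 9 genes around Slc25a13 had -0.08, with the ornithine carrier gene Slc25a15 at -0.37 (SE 0.14). Beside Pdk4 were set 10 genes of pyruvate dehydrogenase, its kinases and its phosphatases, and 13 PPAR and FOXO target genes. These had medians of -0.09 and -0.03, with the ubiquitin ligase gene Fbxo32 at -0.46 (SE 0.12). The 8 genes set beside Glcci1, glucocorticoid-induced genes with the receptor gene Nr3c1, had a median of -0.03. Among them the kinase gene Sgk1 had -0.96 (SE 0.17, limma adjusted p = 0.252). The 11 dense-core vesicle and islet autoantigen genes set beside Ica1 had a median of -0.01, with 0 at an unadjusted p under 0.05.

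**Figure D5:**
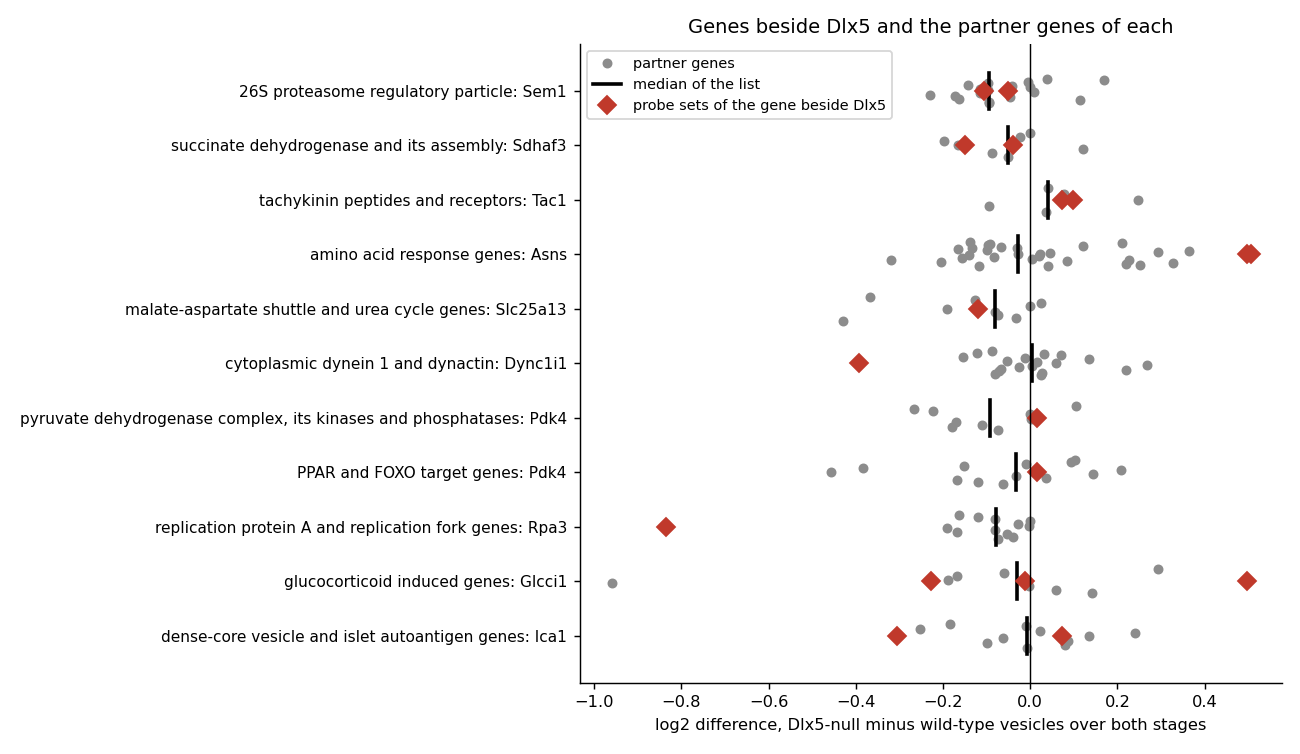
Log2 differences, Dlx5-null minus wild-type vesicles over both stages (horizontal axis), of the genes in each partner list (grey dots), the list median (black bar) and the probe sets of the gene beside Dlx5 (red diamonds). Rpa3, Asns and Dync1i1, and 1 probe set each of Glcci1 and Ica1, lie outside the range of their lists.

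Across the 8 vesicle arrays the genes most like Rpa3 by Pearson's r, among 18193 genes, were Ciao1 (0.976), which encodes a factor of cytosolic iron-sulphur protein assembly, Fnbp1 (0.975), for a membrane-bending protein, and Apobec2 (0.945), for a cytidine deaminase family protein. Those most like Asns 1433966_x_at were Piwil4 (0.935), Ctsj (0.930) and Dapk3 (0.923). These are descriptions over arrays that share stage, genotype and pool makeup, and so many genes compared over 8 arrays leave high values common.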

How the data were processed

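The deposited table holds the authors' log2 expression values of 45101 probe sets on 12 Affymetrix arrays, made with RMA in Affymetrix Expression Console, per the submitters' processing notes, with versions not given in the sources used here. Vesicle arrays had means of 6.10 to 6.11 and 2B1 arrays of 5.76 to 5.82, with different maxima, so the sets were fitted apart. Probe sets were named through the platform annotation, updated with RefSeq: 34945 had 1 gene, 932 several and 9160 none. With 64 controls left out, limma 3.58.1 (lmFit and eBayes, R 4.3.3) was run on all 45037 probe sets, with Benjamini-Hochberg adjustment, a threshold of 0.05 and no filter on level. The genotype effect over both stages had stage as a covariate, stage-wise contrasts and the interaction came from 4 group means, and the 2B1 contrast from its 4 arrays. Groups came from the sample titles. The number of arrays, 2 a group, limits precision, and detection above background is unknown. The fits were tested on simulated data.

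The genes, lists and tests were chosen with earlier results of these data known. Named genes were every probe set of the 10 genes with Dlx5 and Dlx6, and up to 4 genes of each other list by smallest p. Atf4, Trib3, Rpa1 and Rpa2 and the marker genes were named outside that rule, after their values were seen. Alternatives were a filter on dim probe sets, 1 probe set per gene, another eBayes setting, 2 normalizations, arrays left out, a replicate block and an Eif2s3y covariate.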

Additional observations from a re-analysis of the deposited data

How the results depend on the processing

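The alternatives over both stages left the directions of Rpa3 (-0.98 to -0.77), of both Asns probe sets (0.45 to 0.60 and 0.44 to 0.62), of Glcci1 1426218_at (0.37 to 0.57) and of Dync1i1 (-0.49 to -0.32) as they were. The limma adjusted p of Rpa3 ranged over them from 0.0736 to 1.0, and its unadjusted p stayed under 0.05 in 16 of 16. That of Dync1i1 was under 0.05 in 13 of 16, with a highest value of 0.063 after another quantile normalization. A probe set of the genes beside Dlx5 passed the adjusted threshold under 2 alternatives. At E10.5 without both first replicates of E10 this was 1 (Rpa3), against 0 otherwise, and for stage in wild-type with a trended, robust spread it was 1 (Slc25a13).

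Counts of the 17 at an unadjusted p under 0.05 moved as follows. With 1 probe set per gene there were 3 rather than 5 over both stages, 3 rather than 5 at E10.5, and 1 rather than 3 in 2B1 cells, where fewer probe sets were tested. At E10, where the count was 1, there were 3 with a trended, robust spread, 2 after another quantile normalization, 2 without both first replicates of E10 and 3 with Eif2s3y as a covariate. For the interaction, where it was 0, the same alternatives other than the trended spread gave 1, 4 and 1. Stage in Dlx5-null gave 1 rather than 3 with arrays centred on their medians. Leaving out each array in turn gave 0 to 3 at E10, 2 to 5 at E10.5, 0 to 1 for the interaction, 1 to 5 for stage in wild-type, 0 to 3 for stage in Dlx5-null and 0 to 6 in 2B1 cells. The lowest values came without Dlx5-null replicate 1 at E10 and at E10.5, without wild-type E10.5 replicate 1 for stage in wild-type, without replicate 2 of Dlx5-null at either stage for stage in Dlx5-null, and without Dlx5 culture 2 in 2B1 cells. The cause of these moves was not tested.

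With the replicate number as a block the counts were 3 at E10, 2 for the interaction and 1 in 2B1 cells. Same-numbered arrays deviated together at E10 (r = 0.66) but not at E10.5 (0.02), in 2B1 cells (-0.10) or between stages (-0.05 in wild-type, -0.37 in Dlx5-null), so the numbers were not taken to pair the arrays.

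Calls over all probe sets moved more. Over both stages 2 passed, against 10 with a trended, robust spread, 4 after quantile normalization, 19 with the block, 35 without both first replicates of E10, 0 with Eif2s3y and 0 to 16 with 1 array left out. At E10.5 1 passed, against 2, 25, 52 and 0 with the trended spread, the block, those arrays out and Eif2s3y. At E10 0 passed, against 5 with the block and 4 with those arrays out, and for the interaction 0 passed, against 2 with those arrays out and 1 with the trended spread, with medians centred and without either E10 Dlx5-null array. For stage in wild-type 376 passed, against 663 with the trended spread, 804 after quantile normalization, 219 with medians centred, 1674 without both first replicates of E10 and 6 with Eif2s3y. For stage in Dlx5-null 31 passed, against 3 with 1 probe set per gene, 118 with the trended spread, 80 after quantile normalization and 314 with those arrays out. With 1 array left out, 0 to 3 passed at E10, 0 to 7 at E10.5, 0 to 1081 for stage in wild-type and 0 to 128 for stage in Dlx5-null.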
